A study of Mus musculus with 6 samples.

Results

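The sirtuins are the 7 genes *Sirt1* to *Sirt7*, and their rows were taken from the deposited expression table by Ensembl identifier. All 7 were found among 55774 genes, and all 7 passed the filter on low values described here. Sirtuins are a family of enzymes that remove acetyl or other acyl groups from lysines and consume NAD+ in each reaction, so that their activity follows the NAD+ supply of the cell. The family is spread over the cell. SIRT1 and SIRT6 act mainly in the nucleus, SIRT7 in the nucleolus and nucleus, SIRT2 mainly in the cytosol, and SIRT3, SIRT4 and SIRT5 in mitochondria. In oocytes and preimplantation embryos they are known for roles in spindle assembly, chromatin, energy metabolism and the handling of reactive oxygen species.

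RNA was sequenced from 6 pools of 10 mouse blastocysts. The embryos were wild type, came from superovulated ICR females of 6 to 8 weeks mated with males of 8 to 10 weeks, and spent 75 hours in culture in CZB, a defined embryo medium. Both groups received extracellular vesicles isolated from human Fallopian tubal fluid, at the same particle concentration. In the oEV-EMT group (3 libraries) the donors had endometriosis, and in the oEV-ctrl group (3 libraries) they had another gynaecological condition, uterine fibroids per the labels and cervical intraepithelial neoplasia per the study's methods. The model thus puts human vesicles on mouse embryos, and both groups carried vesicles. Nothing used here says whether the 3 pools of a group came from separate cultures or vesicle donors, so p-values measure the spread between these libraries, which may be technical. In pooled embryos, fewer cells of a type and less RNA per cell cannot be told apart.

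Values are FPKM as the authors deposited them, which scale the fragments of a gene by transcript length and by the fragments of the library. FPKM carry no read totals. Depth was estimated by taking the commonest product of FPKM and transcript length, within a fixed range of low values, as 1 fragment. It came to 17.8 to 36.8 in units of 1e6 fragments per library, with oEV-ctrl 1 the shallowest and oEV-EMT 1 the deepest. The fixed range bounds what this estimate can give, and it was not checked against read totals. Genes above 0 were fewest in oEV-ctrl 1 (22994) but most in oEV-ctrl 3 (25955), ahead of oEV-EMT 1 (25372). On the depth estimate the sirtuin values rest on 36.0 fragments (*Sirt6* in oEV-ctrl 1) to 1786 fragments (*Sirt1* in oEV-EMT 1). An unannotated entry, new_gene48, held 15.3% to 19% of all FPKM of a library in oEV-EMT and 19.7% to 31.5% in oEV-ctrl, and transcripts of the mitochondrial genome held 3.93% to 4.84% and 5.96% to 7.45%. Neither share overlapped between the groups. Each library was also scaled to the sum of its annotated nuclear genes, which leaves out mitochondrial transcripts and all 287 unannotated entries, not new_gene48 alone. The median of all genes was then 0.21 higher in oEV-EMT. With this scaling the log2 fold changes were 1.16 for *Sirt6*, 1.08 for *Sirt2*, 0.77 for *Sirt3* and -0.25 for *Sirt1*. The test was limma on log2(FPKM + 1), run on the 11924 genes that reached 1 FPKM in 3 or more libraries. On this scale the median of all tested genes was 0.17 higher in oEV-EMT, and differences of sirtuins are also given relative to that shift.

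The family is held together by a catalytic core. The stretch of each mRNA that encodes the glycine-rich start of its NAD+-binding signature is shown here because all members have it, and because it shows how far the 7 transcripts differ at the base level. Each stretch of 42 bases was read from a GENCODE M21 transcript on GRCm38, 5′ to 3′ on the coding strand, with capitals at the 12 positions that have the same base in all 7.
Sirt1: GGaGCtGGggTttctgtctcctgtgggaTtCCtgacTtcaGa
Sirt6: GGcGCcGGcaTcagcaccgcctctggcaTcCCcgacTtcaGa
Sirt7: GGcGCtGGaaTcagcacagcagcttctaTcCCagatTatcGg
Sirt2: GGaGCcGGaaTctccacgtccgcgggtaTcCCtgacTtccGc
Sirt3: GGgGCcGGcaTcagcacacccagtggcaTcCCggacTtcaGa
Sirt4: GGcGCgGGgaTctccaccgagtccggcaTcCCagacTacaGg
Sirt5: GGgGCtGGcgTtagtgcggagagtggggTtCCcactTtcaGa
Over the 21 pairs, 18 to 36 of the 42 bases were identical, with the highest number for *Sirt3* and *Sirt6*. Even in the whole transcripts the longest identical run of any pair was 10 to 14 bases, and no stretch of 50 bases was shared between sirtuins. A read of 50 bases or more therefore matches no 2 sirtuins exactly.

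The stretches lie in coding exons. In *Sirt4* the stretch lies whole in exon 2 of 5 (chr5:115482896-115482937, minus strand), and in *Sirt5* in exon 3 of 9 (chr13:43371888-43371929, plus strand). In the other 5 genes it spans a splice junction. It runs from exon 8 (chr10:63335636-63335644) into exon 9 of 14 (chr10:63331865-63331897) in *Sirt1*, and from exon 5 (chr7:28776881-28776899) into exon 6 of 16 (chr7:28776996-28777018) in *Sirt2*. In *Sirt7* it runs from exon 3 (chr11:120624490-120624507) into exon 4 of 10 (chr11:120622188-120622211). In *Sirt3* (chr7:140877957-140877997) and *Sirt6* (chr10:81626490-81626530) it ends exon 2, and its last base opens exon 3.

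Some exons of the sirtuins also lie over other genes. The library kit is not described as marking strand, so reads in overlapping bases cannot be assigned to one of the genes. *Sirt3* (ENSMUSG00000025486, chr7:140863666-140882309, minus strand) overlaps exons of *Psmd13*, a proteasome subunit, by 342 bases and of *Ric8a* by 418 bases, both on the opposite strand, and 10.6% of its 50-base stretches were shared with them. *Sirt2* (ENSMUSG00000015149, chr7:28766735-28788661, plus strand) overlaps *Nfkbib* by 42 bases and shared 0.209% of its stretches with any other gene. *Sirt5* (ENSMUSG00000054021, chr13:43365496-43395203, plus strand) shared 14.2% of its stretches with 721 other genes, the largest share being 7.0% with *Wdr31*. For *Sirt1* (ENSMUSG00000020063, chr10:63319005-63381704, minus strand) that share was 1.01%, and for *Sirt7* (ENSMUSG00000025138, chr11:120618372-120625240, minus strand) 1.44%, most of it with its neighbour *Mafg*. *Sirt4* (ENSMUSG00000029524, chr5:115478010-115484725, minus strand) and *Sirt6* (ENSMUSG00000034748, chr10:81621785-81627797, minus strand) shared none. The values of *Sirt3* and *Sirt5* are therefore less certain than those of *Sirt4* and *Sirt6* in this respect.

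**Figure D1:**
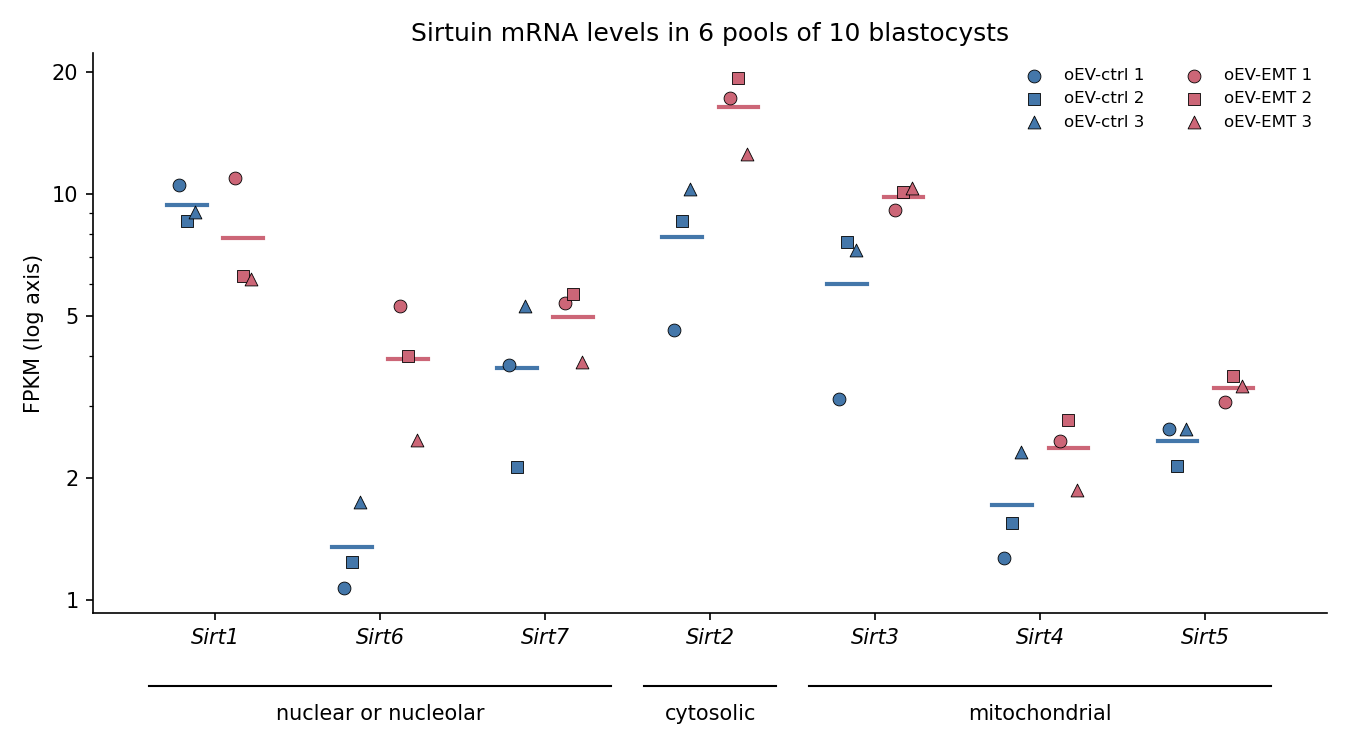
FPKM of each sirtuin (vertical log axis) in the 3 oEV-ctrl libraries (blue) and the 3 oEV-EMT libraries (red), with the marker shape giving the library number and each bar the group mean, ordered by cell compartment. The groups do not overlap for *Sirt6*, *Sirt2*, *Sirt3* and *Sirt5*, whereas *Sirt1* has the lower mean in oEV-EMT.

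All 7 sirtuins were detected in each library. Over the 6 libraries *Sirt2* had the highest mean level at 12.1 FPKM, which placed it at percentile 59.9 of the tested genes. *Sirt1* followed with 8.61 FPKM and *Sirt3* with 7.95 FPKM, both close to the median gene, whose mean was 7.74 FPKM. *Sirt7* had a mean of 4.36 FPKM, *Sirt5* of 2.90 FPKM and *Sirt6* of 2.64 FPKM. *Sirt4* was lowest with 2.04 FPKM, at percentile 17. The order was not sharp, since none of the 6 neighbouring pairs kept it in all libraries. *Sirt3* exceeded *Sirt7*, and *Sirt7* exceeded *Sirt5*, in 5 of 6 libraries, whereas *Sirt6* exceeded *Sirt4* in 3 of 6.

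The order differed between the groups. In oEV-EMT it ran *Sirt2*, *Sirt3*, *Sirt1*, *Sirt7*, *Sirt6*, *Sirt5*, *Sirt4* by mean FPKM. In oEV-ctrl it ran *Sirt1*, *Sirt2*, *Sirt3*, *Sirt7*, *Sirt5*, *Sirt4*, *Sirt6*. *Sirt2* stood above *Sirt1* in 3 of 3 oEV-EMT libraries and in 1 of 3 oEV-ctrl libraries, and *Sirt6* stood above *Sirt4* in 3 of 3 and 0 of 3. In oEV-ctrl 2, however, *Sirt2* and *Sirt1* were nearly equal, at 8.58 and 8.59 FPKM. Since the levels of a library are compared with each other here, these orders within a library do not depend on the scaling between libraries.

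The main comparison asked which sirtuins differed between the oEV-EMT and oEV-ctrl blastocysts. *Sirt2* and *Sirt6* had the largest differences, with group means 2.09 and 2.90 times as high in oEV-EMT, followed by *Sirt3* with 1.64 times. *Sirt1* was the one member with a lower mean in oEV-EMT. At the thresholds of the study's methods (Benjamini-Hochberg adjusted p up to 0.05, together with a log2 fold change of 1 or more in either direction), limma called 0 of 7 sirtuins, beside 0% of all 11924 tested genes. At an unadjusted p of at most 0.05 it counted 3 sirtuins higher in oEV-EMT (*Sirt2*, *Sirt3* and *Sirt6*) and 0 lower, while 12.8% of all genes were higher and 2.55% lower. The groups did not overlap for 4 of 7 sirtuins, all higher in oEV-EMT, against 18.1% of all genes higher and 4.34% lower. A median log2 fold change of 0.38 over the family compares with 0.17 over all genes, and 6 of 7 members lay above the latter.

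Among the nuclear members, *Sirt1*, the best known deacetylase of p53 and of histones in this family, had 11.0, 6.30 and 6.18 FPKM in oEV-EMT 1, 2 and 3 and 10.5, 8.59 and 9.06 FPKM in oEV-ctrl 1, 2 and 3. The groups overlapped, because oEV-EMT 1 had the highest value of all 6 while oEV-EMT 2 and 3 had the lowest. The means were 7.82 ± 2.73 and 9.40 ± 1.02 FPKM (SD, n = 3 each). The log2 fold change was -0.28 (95% interval -0.84 to 0.29, adjusted p = 0.633 by limma), and relative to the median gene it was -0.45. Without oEV-EMT 1 it was -0.52, with an adjusted p of 0.244 by limma and no overlap. In that fit 1498 of 11924 genes were lower without overlap.

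*Sirt6*, a chromatin deacetylase that takes part in DNA repair and holds down genes of glycolysis, had 5.30, 3.98 and 2.48 FPKM in oEV-EMT and 1.07, 1.24 and 1.74 FPKM in oEV-ctrl. Each oEV-EMT library lay above each oEV-ctrl library. The means were 3.92 ± 1.41 and 1.35 ± 0.348 FPKM (SD, n = 3 each). The fitted log2 fold change was 1.03 ± 0.26 (SE), with a 95% interval of 0.46 to 1.61 and an adjusted p of 0.160 by limma, and an exact two-sided permutation test gave p = 0.1, the smallest value that 3 against 3 libraries allow. With a pseudocount of 0.1 in place of 1 the log2 fold change was 1.43, since adding 1 understates changes at low levels. Between 36.0 and 107 fragments were implied for *Sirt6* in the oEV-ctrl libraries, and between 118 and 368 in the oEV-EMT libraries.

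*Sirt7*, which acts on ribosomal DNA transcription, had 5.39, 5.67 and 3.85 FPKM in oEV-EMT and 3.79, 2.12 and 5.30 FPKM in oEV-ctrl. The groups overlapped, with oEV-ctrl 3 nearly as high as the upper oEV-EMT libraries. The log2 fold change was 0.38 (95% interval -0.26 to 1.01, adjusted p = 0.553 by limma). It rested on single libraries, being 0.11 without oEV-ctrl 2 and 0.61 without oEV-ctrl 3.

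The cytosolic member *Sirt2*, a deacetylase of tubulin and of proteins of the mitotic checkpoint, had 17.3, 19.3 and 12.6 FPKM in oEV-EMT and 4.64, 8.58 and 10.3 FPKM in oEV-ctrl. Every oEV-EMT library lay above every oEV-ctrl library, with the nearest pair being oEV-EMT 3 and oEV-ctrl 3. The means were 16.4 ± 3.46 and 7.85 ± 2.91 FPKM (SD, n = 3 each). The fitted log2 fold change was 1.02 ± 0.29 (SE), with a 95% interval of 0.36 to 1.67 and an adjusted p of 0.175 by limma, and the exact permutation p was 0.1. Relative to the median gene it was 0.84. Without oEV-ctrl 1, the lowest library for *Sirt2*, the log2 fold change was 0.72 with an adjusted p of 0.46 by limma. *Nfkbib*, with which *Sirt2* shares 42 exonic bases, had 18.5, 17.6 and 12.1 FPKM in oEV-EMT and 11.1, 7.17 and 12 FPKM in oEV-ctrl, and the part of shared reads in the *Sirt2* values was not tested.

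Among the mitochondrial members, *Sirt3*, the main deacetylase of the matrix, had 9.14, 10.2 and 10.3 FPKM in oEV-EMT and 3.12, 7.63 and 7.29 FPKM in oEV-ctrl. The groups did not overlap, and oEV-ctrl 1 stood far below the other oEV-ctrl libraries. The means were 9.88 ± 0.649 and 6.01 ± 2.51 FPKM (SD, n = 3 each), the log2 fold change was 0.71 (95% interval 0.05 to 1.36) and the adjusted p was 0.293 by limma. Without oEV-ctrl 1, the shallowest library on the depth estimate, the log2 fold change was 0.36 with an adjusted p of 0.631 by limma. The overlapping neighbour *Psmd13* had 43.9, 55.8 and 33.3 FPKM in oEV-EMT and 24.1, 19 and 28.5 FPKM in oEV-ctrl, with a difference of 0.85 on the log2 scale (adjusted p = 0.178 by limma). That is a higher level than that of *Sirt3* in each library. *Ric8a*, which overlaps 418 exonic bases of *Sirt3*, had 11.8, 10.6 and 8.49 FPKM in oEV-EMT and 6.51, 7.61 and 12.6 FPKM in oEV-ctrl, and its groups overlapped. The part of *Psmd13* or *Ric8a* reads in the *Sirt3* values was not tested.

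*Sirt4*, an inhibitor of glutamate dehydrogenase, had 2.47, 2.77 and 1.86 FPKM in oEV-EMT and 1.27, 1.54 and 2.32 FPKM in oEV-ctrl. The groups overlapped, since oEV-ctrl 3 exceeded oEV-EMT 3. The log2 fold change was 0.32 (95% interval -0.19 to 0.83, adjusted p = 0.523 by limma), and it was 0.20 without oEV-ctrl 1. *Sirt5*, which removes succinyl, malonyl and glutaryl groups, had 3.08, 3.56 and 3.37 FPKM in oEV-EMT and 2.63, 2.14 and 2.64 FPKM in oEV-ctrl. The groups did not overlap, and both were narrow, with means of 3.34 ± 0.241 and 2.47 ± 0.288 FPKM (SD, n = 3 each). As for *Sirt4*, the log2 fold change was 0.32 (95% interval -0.13 to 0.78, adjusted p = 0.476 by limma), which is 0.15 above the median gene.

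**Figure D2:**
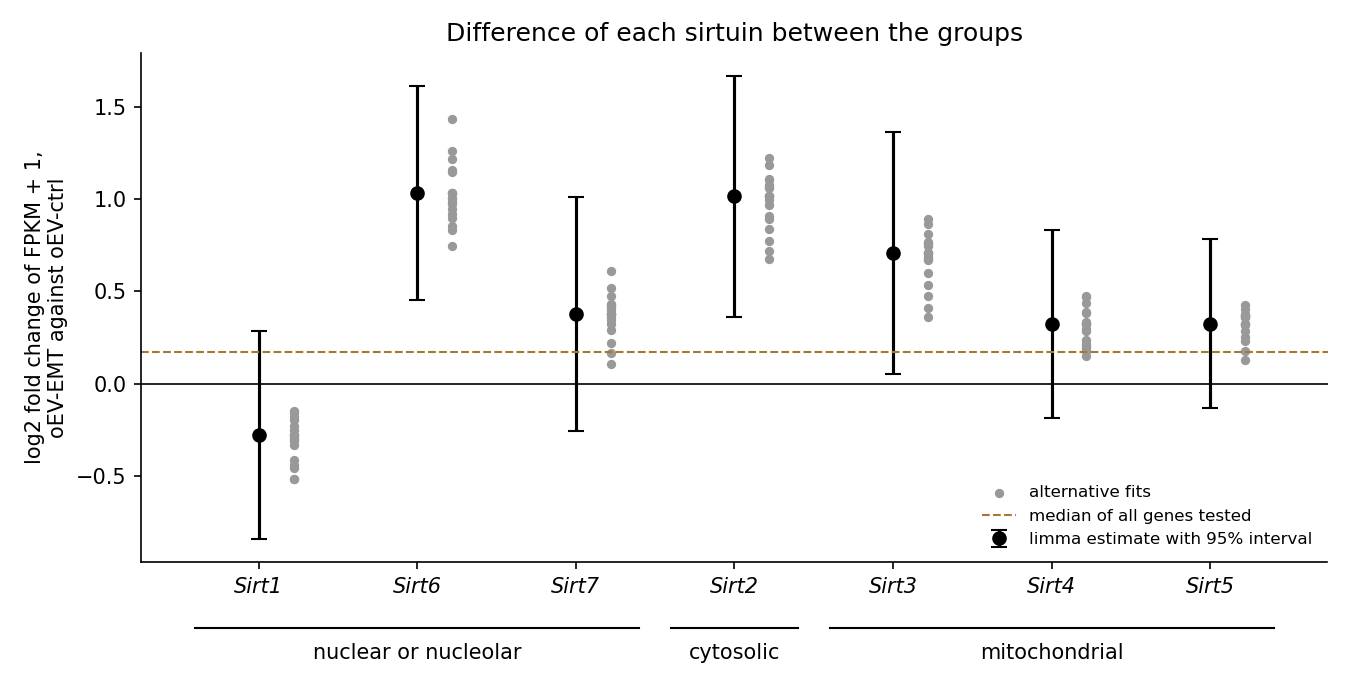
Log2 fold change of FPKM + 1, oEV-EMT against oEV-ctrl (vertical axis), for each sirtuin: black points are the limma estimates with 95% intervals, grey points the estimates under alternative processing and left-out libraries, and the dashed line the median of all tested genes at 0.17. The intervals of *Sirt6*, *Sirt2* and *Sirt3* lie above 0, the other 4 include 0, and no grey point crosses 0. Grey points for another filter, the other variance model or the replicate block equal the black points by construction.

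Scaling between libraries decides part of this picture. As deposited, 1527 genes were higher and 304 lower in oEV-EMT at an unadjusted p of at most 0.05 (limma). After median-of-ratios scaling these numbers were 767 and 762, and after upper quartile scaling 551 and 961. *Sirt2* and *Sirt6* were the 2 sirtuins whose groups did not overlap under either scaling, where 9.85% and 7.57% of all genes were higher without overlap. *Sirt2* then had a log2 fold change of 0.84 or 0.77, and *Sirt6* of 0.90 or 0.85, with adjusted p of 0.209 to 0.282 by limma. *Sirt3* had 0.54 or 0.48 and overlapped, and *Sirt1* had -0.45 or -0.51.

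Ratios within a library are free of that scaling. Divided by the *Sirt1* value of the same library, *Sirt6* gave 0.483, 0.633 and 0.401 in oEV-EMT and 0.102, 0.145 and 0.192 in oEV-ctrl, a difference of 1.81 on the log2 scale. For *Sirt2* these ratios were 1.58, 3.07 and 2.04 in oEV-EMT and 0.440, 0.998 and 1.14 in oEV-ctrl, a difference of 1.43. These 2 of 6 members did not overlap between the groups, while *Sirt3* (difference 1.14), *Sirt4* (0.81), *Sirt7* (0.80) and *Sirt5* (0.75) did. The ratio to *Sirt1* was higher without overlap for 27.6% of all other tested genes and lower for 0.939%, so that a count of 2 in 6 is close to that background.

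**Figure D3:**
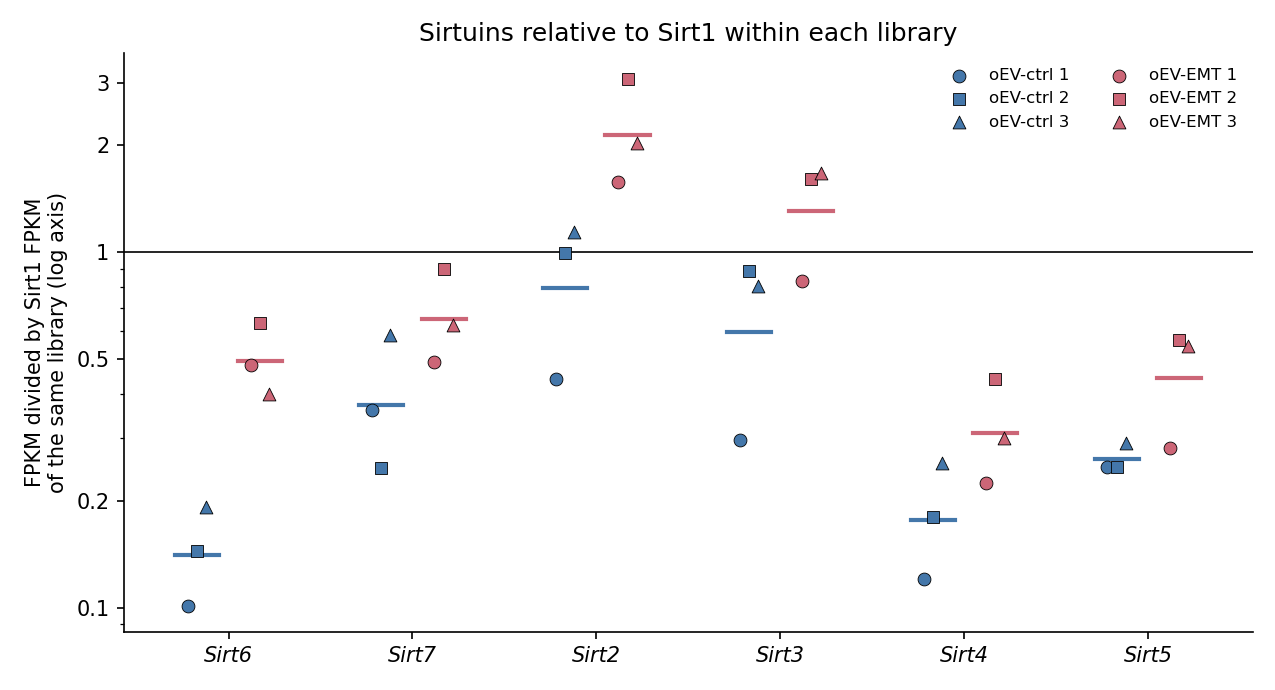
FPKM of each of the other 6 sirtuins divided by the *Sirt1* FPKM of the same library (vertical log axis), with blue for oEV-ctrl, red for oEV-EMT, shapes for the library number and bars for the geometric mean. *Sirt6* and *Sirt2* separate the groups, with *Sirt6* at 0.102 to 0.192 in oEV-ctrl and 0.401 to 0.633 in oEV-EMT.

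By compartment, the unadjusted limma p was at most 0.05 for *Sirt6* (1 of 3 nuclear members), the cytosolic *Sirt2* and *Sirt3* (1 of 3 mitochondrial members). Over all genes 12.8% were higher and 2.55% lower at that p. Counts from so few genes cannot set the compartments apart, and 0 members passed the adjusted threshold. The median log2 fold change was 0.38 over the nuclear and 0.32 over the mitochondrial members, against 0.17 over all genes. The 3 nuclear genes summed to 21.7, 16.0 and 12.5 FPKM in oEV-EMT and 15.4, 12 and 16.1 FPKM in oEV-ctrl, which overlapped. The 3 mitochondrial genes summed to 14.7, 16.5 and 15.6 FPKM in oEV-EMT and 7.03, 11.3 and 12.2 FPKM in oEV-ctrl, which did not overlap, with means of 15.6 ± 0.902 and 10.2 ± 2.78 FPKM (SD, n = 3 each). All 7 together summed to 48.7 ± 7.0 FPKM in oEV-EMT and 32.5 ± 5.83 FPKM in oEV-ctrl (SD, n = 3 each), without overlap.

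As a share of that sum, *Sirt1* made up 20.4%, 12.2% and 15.2% in oEV-EMT and 38.9%, 27.0% and 23.4% in oEV-ctrl. *Sirt2* made up 32.2%, 37.3% and 30.9% in oEV-EMT and 17.1%, 26.9% and 26.7% in oEV-ctrl. Neither share overlapped between the groups, and they lay on opposite sides. Both are parts of the same sum, so a larger *Sirt2* part lowers the *Sirt1* share by arithmetic. The FPKM of *Sirt1* overlapped between the groups. The mitochondrial share overlapped, with 27.4%, 31.9% and 38.3% in oEV-EMT and 26.0%, 35.5% and 31.7% in oEV-ctrl. The ratio of mitochondrial to nuclear sirtuin FPKM also overlapped, with 0.679, 1.03 and 1.25 in oEV-EMT and 0.456, 0.946 and 0.760 in oEV-ctrl. Its direction rested on *Sirt1*: with that gene left out of the nuclear sum, the ratio was 1.37, 1.71 and 2.46 in oEV-EMT and 1.44, 3.36 and 1.74 in oEV-ctrl, with the lower mean in oEV-EMT (1.85 ± 0.557 against 2.18 ± 1.03, SD, n = 3 each). No clear shift between these compartments could thus be read from the sums.

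**Figure D4:**
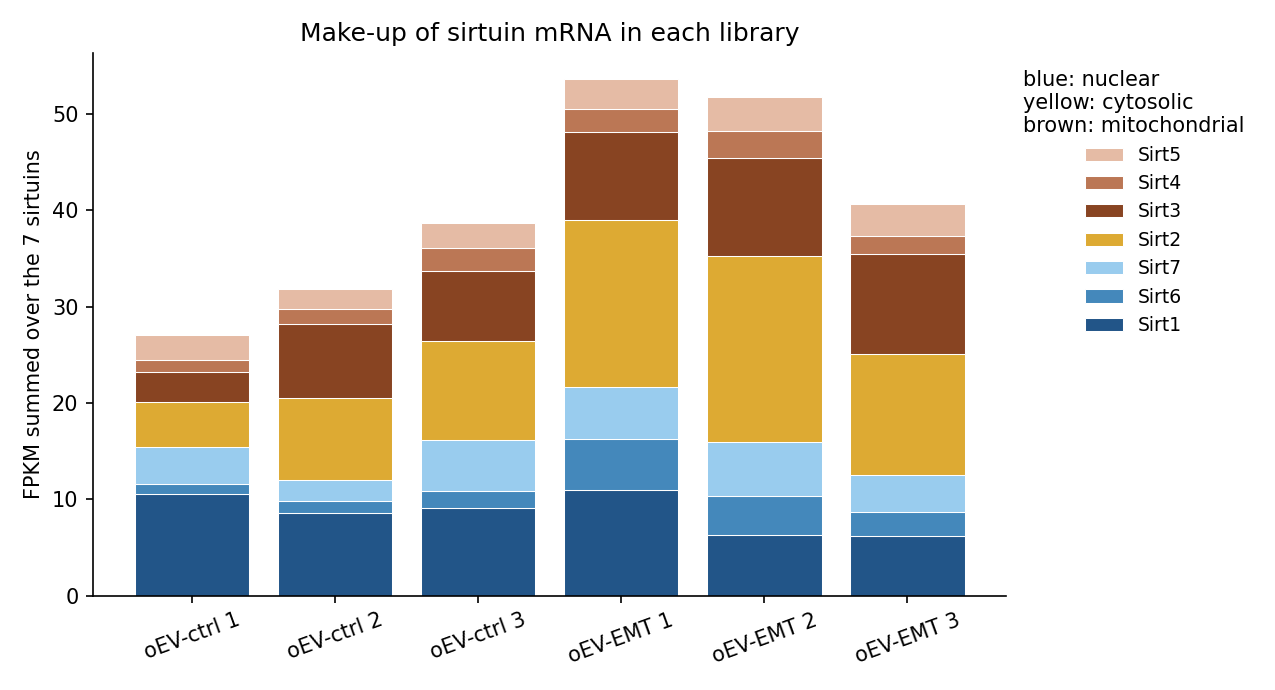
FPKM summed over the 7 sirtuins in each library (vertical axis), stacked by gene, with nuclear members in blue, the cytosolic *Sirt2* in yellow and mitochondrial members in brown. The sums run from 27.1 to 38.7 FPKM in oEV-ctrl and from 40.7 to 53.6 FPKM in oEV-EMT, and the *Sirt2* segments of the oEV-EMT libraries are all larger than those of oEV-ctrl.

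Some cell type markers differed in level between the groups as well. Of 8 epiblast markers 4 were higher in oEV-EMT at an unadjusted p of at most 0.05 by limma (*Nanog*, *Pou5f1*, *Fgf4* and *Gdf3*), and their list summed to 141 to 177 FPKM in oEV-EMT and 69.6 to 121 FPKM in oEV-ctrl, beside 12.8% of all genes higher at that p. The other 4 overlapped between the groups, with log2 fold changes of 0.32 for *Tdgf1*, 0.07 for *Klf2*, -0.06 for *Esrrb* and -0.32 for *Sox2*, so the epiblast list did not go one way. Trophectoderm markers, with 1 of 8 higher (*Elf5*, 0.67), summed to 3136 to 4746 and 3082 to 4836 FPKM. Their other members were *Eomes* (-0.39), *Gata3* (-0.26), *Krt18* (-0.02), *Krt8* (-0.02), *Tfap2c* (0.04), *Cdx2* (0.07) and *Tead4* (0.22). Primitive endoderm markers, with 2 of 8 higher (*Gata4*, 0.82, and *Sox17*, 0.95), summed to 146 to 284 and 192 to 252 FPKM. Their other members were *Dab2* (-0.26), *Gata6* (-0.19), *Col4a1* (-0.07), *Pdgfra* (0.08), *Lama1* (0.33) and *Sox7* (0.52). Neither of these lists went one way. The part of these marker differences in the sirtuin values was not tested. Of the other cells a pool could hold, cumulus markers (1 of 8 tested, 0 higher or lower) summed to 1.23 to 2.28 FPKM in oEV-EMT and 1.71 to 2.86 FPKM in oEV-ctrl (*Ptx3*, *Amh*, *Fshr* and *Inhba* at 0) and oviduct epithelial markers (0 of 7 tested) to 0.205 to 0.412 and 0.202 to 0.348 FPKM (*Foxj1*, *Wt1* and *Muc16* at 0). Blood cell markers, with 1 of 2 tested higher, summed to 7.57 to 15.8 FPKM in oEV-EMT and 4.83 to 7.80 FPKM in oEV-ctrl, most of it *Cd68*, with *Ptprc*, *Hbb-bs* and *Itgam* at 0.

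Sirtuins depend on NAD+, and genes of its synthesis, transport and conversion were read beside them. Of 21 such genes listed 11 were tested, of which 4 were higher in oEV-EMT at an unadjusted p of at most 0.05 by limma, 0 lower, and 7 did not overlap, with a median log2 fold change of 0.40. Over all genes 12.8% were higher at that p, 2.55% lower and 18.1% higher without overlap, with a median of 0.17, and the lists that follow are to be read beside the same shares. *Nadk*, the cytosolic NAD+ kinase that makes NADP+, had 39.8, 41.0 and 31.4 FPKM in oEV-EMT and 20, 17.7 and 25.3 FPKM in oEV-ctrl, which is 0.81 on the log2 scale (adjusted p = 0.164 by limma). The other 3 were *Nadsyn1*, the NAD+ synthetase (0.68), *Afmid*, which acts in the kynurenine route (0.64), and *Nmnat1*, the nuclear adenylyltransferase (0.58), with adjusted p of 0.222 to 0.307 by limma. The listed *Tdo2*, *Ido1*, *Kmo*, *Kynu*, *Haao* and *Qprt* of the kynurenine route did not pass the filter and were not tested. *Nampt*, the rate-limiting enzyme of NAD+ salvage, had 12.3, 7.60 and 7.18 FPKM in oEV-EMT and 7.64, 8.56 and 8.68 FPKM in oEV-ctrl, for a fitted log2 difference of 0.07. In the library with the highest *Sirt1*, oEV-EMT 1, *Nampt* was also highest. That library was highest for *Hdac1* and *Trp53* as well, though not for *Nadk*, and a link of *Nampt* to *Sirt1* was not tested.

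Enzymes that compete for NAD+ were mixed. Of 7 tested among 9 listed, 1 was higher at an unadjusted p of at most 0.05 by limma and 0 lower, and the median log2 fold change was 0.13. *Parp2*, a polymerase of ADP-ribose in DNA repair, had a log2 fold change of 0.47, *Cd38*, an NAD+ glycohydrolase, of 0.28, and *Parp1* of -0.32 with overlapping groups (31.1, 25.5 and 24.1 against 39.7, 30.4 and 31.9 FPKM).

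Zinc-dependent histone deacetylases, which remove acetyl groups without NAD+, had 2 of 7 tested members higher and 0 lower by the same limma rule, with a median log2 fold change of 0.07. *Hdac1* had 47.9, 24.4 and 22.7 FPKM in oEV-EMT and 13.9, 14.4 and 22.6 FPKM in oEV-ctrl (log2 fold change 0.82, adjusted p = 0.259 by limma), so that its groups lay edge to edge without overlap and oEV-EMT 1 stood far above the rest. *Hdac6*, a tubulin deacetylase like SIRT2, had 0.65, and *Hdac3* 0.48. Of the acetyltransferases, which add what sirtuins remove, 0 of 11 tested were higher and 1 was lower, *Ep300*, with 2.14, 0.795 and 1.00 FPKM in oEV-EMT and 3.19, 2.73 and 1.93 FPKM in oEV-ctrl (log2 fold change -0.67, adjusted p = 0.267 by limma). *Hat1*, which acetylates new histones, had 0.37 and *Bloc1s1*, linked to mitochondrial acetylation, 0.36. None of the 4 tested SIRT1 regulators passed that rule, and *Ccar2*, an inhibitor of SIRT1, had a log2 fold change of 0.12, *Rps19bp1*, an activator, of 0.19 and *Senp1*, which removes SUMO from SIRT1, of 0.18.

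The mRNAs of sirtuin substrates do not report on their acetylation, which was not measured. For nuclear sirtuins 2 of 11 tested substrate genes were higher by the same limma rule and 0 lower, with a median log2 fold change of 0.26. *Trp53*, which encodes p53, had 50, 25.9 and 22.7 FPKM in oEV-EMT and 10.3, 10.9 and 17.6 FPKM in oEV-ctrl, for a fitted log2 difference of 1.23 (adjusted p = 0.164 by limma), *Myc* had 0.71 and *Gabpb1*, a subunit of GABP on which SIRT7 acts, 0.29, and *Ppargc1a* was listed at 0 in all libraries. For SIRT2 0 of 6 passed, with a median of 0.26 (*Cdc20* 0.43, *G6pdx* 0.40 and *Bub1b* 0.26). For mitochondrial sirtuins 1 of 15 was higher and 0 lower, with a median of 0.15, below the 0.17 of all genes. That one was *Ppif*, cyclophilin D of the permeability pore (0.52), beside *Ndufa9* of complex I (0.37), *Acadl* of fatty acid oxidation (0.32) and *Sod2*, the matrix superoxide dismutase activated by SIRT3 (-0.15).

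The genes whose pattern over the 6 libraries was most like that of a sirtuin were found by Pearson's r of log2(FPKM + 1) among 9602 protein-coding genes, as a description of 6 points that share depth and group. For *Sirt1* these were *Etaa1* (r = 0.999), *Ikzf5* (0.998) and *Dhx15* (0.995), and for *Sirt6* *Gm10131* (0.997), *Mfsd13a* (0.996) and *Lamp1* (0.995). For *Sirt2* they were *Rnf5*, *Ube2n* and *Sec23b* (0.990 to 0.994), for *Sirt3* *Zfp960*, *Prr13* and *Glt8d1* (0.995 to 0.997), and for *Sirt4* *Kiz*, *Cdc45* and *Ddx1* (0.990 to 0.993). *Sirt5* had *Rnf181*, *Cops7a* and *Fbxo17* (0.992 to 0.998), and *Sirt7* had *Zkscan6*, *Hltf* and *Rgcc* (0.992 to 0.994). Such values are common with 6 points. An r above 0.95 was reached by 214 genes for *Sirt6* and 44 genes for *Sirt7*, the highest and lowest numbers. No sirtuin was among the 3 genes most like another. With so few other sirtuins among 9602 genes, this cannot show whether they vary together.

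The start regions of the sirtuins were read for known promoter motifs, and those shown belong to the members with the lowest and highest fold change and to motifs that few windows hold. RefSeq promoter windows (GRCm38.p6, 250 bases before to 50 after a start) were found for all 7 genes, 9 windows in all among 32851. The *Sirt1* window (chr10:63338986-63339285, minus strand) had 79% G and C and 47 CpG, against medians of 52.7% and 7 over all windows. Its part outside annotated exons (chr10:63339051-63339285), which lies inside the annotated span of the gene, holds the E-box CACGTG at -115 and -43, in capitals.
Sirt1: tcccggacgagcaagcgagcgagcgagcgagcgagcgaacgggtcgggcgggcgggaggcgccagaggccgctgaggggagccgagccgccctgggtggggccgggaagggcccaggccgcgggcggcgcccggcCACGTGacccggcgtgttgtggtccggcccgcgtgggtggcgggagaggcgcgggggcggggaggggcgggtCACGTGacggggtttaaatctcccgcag
The E-box was in 7.15% of all windows and in no other sirtuin window. The other 8 sirtuin windows had 15 to 24 CpG and 50% to 64.7% G and C.

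The NRF1 motif (GCGCA followed by TGCGC) was in 0.971% of all windows and, among sirtuins, in that of *Sirt6* (chr10:81627690-81627719, minus strand). The ZNF143 motif (ACTACA and TCCC with any 2 bases between them) was in 1.81% of all windows and in those of *Sirt2* (chr7:28766672-28766701 and chr7:28766741-28766770, plus strand) and *Sirt4* (chr5:115484413-115484442 and chr5:115484374-115484403, minus strand), with 2 matches in each. Motifs were searched on both strands, and capitals mark the match.
Sirt6: catcaggaggGCGCATGCGCtctggaaaga
Sirt2, first: aggctttttGGGATTTGTAGTttgataaca
Sirt2, second: ttgcctgccGGGAGTTGTAGTtctctatcc
Sirt4, first: taggattctGGGACTTGTAGTtttcttcca
Sirt4, second: gcttcgcggACTACATTTCCCaagatgcac
Of the other motifs, the ETS motif CCGGAAGT (3.89% of all windows) was in windows of *Sirt3* and *Sirt6*, and the CCAAT box CCAAT (37.4%) in those of *Sirt2*, *Sirt3* and *Sirt5*. The GC box GGGCGG (35.7%), whose matches can overlap each other, was in a window of each gene but *Sirt4*, and TATAAA (13.6%) was in none. A match is a description of letters and says nothing of binding.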

How the data were processed

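RNA sequencing of 6 pools of 10 blastocysts was analysed. The authors selected polyadenylated RNA, assembled transcripts with StringTie on mm10 per the submitters' processing notes, and used DESeq2 for their own list, which was not used here. The aligner is not given in the sources used here. They deposited 1 value per gene and library for 55774 genes. The methods call the values TPM, but TPM have the same sum in every library and these sums differ, so the deposited values were analysed as FPKM. Of 55487 Ensembl identifiers, 55227 matched GENCODE M21, which is on GRCm38.

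Genes with at least 1 FPKM in at least 3 libraries (11924) were fitted as log2(FPKM + 1) in limma 3.58.1 (R 4.3.3; trend and robust options on), adjusted by Benjamini-Hochberg, after the procedure was tested on simulated data. Exact two-sided permutation tests (scipy 1.17.1) cannot give a p below 0.1 here. Alternatives covered scaling, filter, pseudocount, variance model, library weights, each library left out in turn, a replicate block, and transcript length (a loess of span 0.5).

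Depth was estimated from the commonest product of FPKM and length, within a fixed range of low values of genes with 1 transcript, taken as 1 fragment. No counting interval was computed from it.

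The members and gene lists were chosen with earlier results of these data known, and the 7 promoter motifs after the sequences were seen. Genes named from the lists other than cell type markers were the 3 with the smallest p in each, any with an unadjusted p of at most 0.05, and *Nampt*, *Ccar2*, *Hdac1*, *Sod2* and *Parp1*. Blastocyst markers with such a p were named, and the other blastocyst markers after their values were seen. For each sirtuin the 3 genes with the highest r were also named. Promoters came from RefSeq. Protein sequences were not used here. Python 3.11.15 and matplotlib 3.10.9 served for the figures.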

Additional observations from a re-analysis of the deposited data

How the results depend on the processing

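Over 19 alternatives, of which 18 were planned, the fitted log2 fold changes of the sirtuins gave 130 values. All 130 kept their direction, and 0 passed both thresholds. Part of this agreement was fixed in advance. Another filter, the other variance model and the replicate block change p but cannot change the fitted log2 fold changes. The ranges were -0.52 to -0.15 for *Sirt1*, 0.67 to 1.22 for *Sirt2*, 0.36 to 0.89 for *Sirt3*, 0.15 to 0.48 for *Sirt4*, 0.13 to 0.42 for *Sirt5*, 0.75 to 1.43 for *Sirt6* and 0.11 to 0.61 for *Sirt7*. The unadjusted limma p was at most 0.05 in 19 of 19 alternatives for *Sirt2*, 18 of 18 for *Sirt6* and 11 of 19 for *Sirt3*, and adjusted p ranged from 0.0730 to 0.631 for *Sirt2* and from 0.0504 (library weights) to 0.609 (no filter) for *Sirt6*.

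The number of sirtuins whose groups did not overlap was 2 after median-of-ratios scaling, 2 after upper quartile scaling and 2 at a minimum of 5 FPKM, where 4 sirtuins were left to test and 3 of them were higher in oEV-EMT. At that minimum 1506 of 7265 genes were higher without overlap. With 1 library left out the number of sirtuins was 4 to 6, and more of all genes then lacked overlap too. Without oEV-EMT 2, oEV-ctrl 1 or oEV-ctrl 2 it was 4, where 2749, 2635 and 2602 genes were higher without overlap. It was 6 without oEV-EMT 3 and without oEV-ctrl 3, where 3651 and 3315 of 11924 genes were higher without overlap, against 2158 as fitted. It was 5 without oEV-EMT 1, with *Sirt1* on the lower side, where 3241 genes were higher and 1498 lower without overlap. Genes called over the whole table numbered 0 as fitted, 104 with library weights and 0 to 17 with 1 library left out (17 without oEV-ctrl 3). They numbered 1 without the libraries estimated as deepest and shallowest, an alternative chosen after seeing the data. The cause was not tested. The difference in the log2 ratio of mitochondrial to nuclear FPKM was 0.47, 0.07 as a mean of log2 values and 0.17 to 0.72 with 1 library left out, but it reversed to -0.18 with *Sirt1* left out of the nuclear sum, an alternative also chosen after seeing the data.

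Replicate numbers gave no clear sign of pairing. Same-numbered libraries correlated at 0.119, -0.0442 and 0.0388 in their deviations from the group means, and not every library correlated best with its own number. With 3 libraries per group these values cannot exclude pairing. A replicate block called 21 genes, against 0 without it, and no sirtuin, with adjusted limma p of 0.210 for *Sirt2* and 0.177 for *Sirt6*. Count models (edgeR, DESeq2), planned for a table of counts, were not run, since the table holds FPKM. Depth limits the weaker members most, with as few as 36.0 fragments implied for *Sirt6* and 40.5 for *Sirt4*.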
